A study of Homo sapiens with 16 samples.

Results

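The genes described here are 44 genes of S phase and of the E2F transcription factors, chosen by name from the 58219 genes of the deposited table. All 44 passed the filter on low counts, which kept 17743 genes. By role they comprise 10 genes of origin licensing, 7 of origin firing, 7 polymerase and primase subunits, 9 genes of the sliding clamp, its loaders and strand maturation, 5 of nucleotide supply, 3 E2F factors and 3 genes of checkpoint and repair.

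RNA was sequenced from PANC-1 cells, an established human epithelial line from a pancreatic carcinoma, to ask what FLASH, NPAT and SLBP do in the switch between epithelial and mesenchymal states. All 16 libraries come from this line, 2 in each of 8 groups. In 4 groups no TGFb was given: non-transfected cells, labelled wild type, and cells with siRNA against FLASH (the CASP8AP2 gene), NPAT or SLBP. The other 4 groups were the same kinds of cells treated with TGFbeta, here TGFb, at 100 ng/ml for 48 h. Sample titles give day 3, whereas the design text gives 4 days from transfection. None of the groups is described as given a control siRNA without a target. Titles call the control cells non-transfected, whereas their sample descriptions read Mock. Whether these non-transfected cells received transfection reagent is not stated, so taking up any siRNA is part of each comparison with them. The siRNA groups were therefore also compared with each other. The labels do not say that the 2 libraries of a group came from separate cultures, and p-values measure only the spread between them, which may be technical.

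In dividing cells, origins of replication are licensed in G1 by loading of the MCM helicase and are fired in S phase, when CDC7 kinase, CDC45 and the GINS complex turn the helicase on. E2F factors, held back by RB proteins until G1 cyclin kinases act, drive transcription of most genes of this machinery and of nucleotide synthesis, so that their transcripts rise together as cells enter S phase. NPAT, a substrate of cyclin E kinase, activates replication-dependent histone genes in the same phase, and FLASH and SLBP act in cutting the ends of those histone transcripts.

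Library totals ranged from 23.8 to 30.8 M (mega) counts. The targeted transcripts matched the labels in all 16 libraries: CASP8AP2 had a mean of 57.2 CPM (counts per M of the scaled library total) in non-transfected cells and 11.7 CPM with FLASH siRNA, NPAT 51.2 and 5.45 CPM, and SLBP 67.4 and 3.88 CPM. With TGFb the same pairs were 54.2 and 11.4, 50.5 and 6.44, and 64.8 and 4.21 CPM. The line's markers (KRT8, KRT18, KRT7, KRT19, EPCAM and VIM) were all detected, with KRT7 lowest at 2.05 to 10.6 CPM. Of 7 leukocyte markers, 5 did not pass the filter, and PTPRC did not exceed 0.274 CPM in any library, whereas CD68 reached 185 CPM. Without TGFb, summed endothelial markers ranged from 0.0357 to 0.0381 CPM in non-transfected cells and from 1.46 to 4.86 CPM in the siRNA groups. Summed fibroblast markers, mostly COL1A1, ranged from 44.1 to 84.1 and from 146 to 827 CPM. With TGFb the endothelial sums were 0.108 to 0.277 and 3.47 to 11.6 CPM. The fibroblast sums with TGFb were much higher, at 2560 to 3010 CPM in non-transfected cells and 2150 to 6450 CPM in the siRNA groups. Mitochondrial genes took 9.78% to 9.84% of counts in non-transfected cells without TGFb, 10.28% to 10.76% with FLASH siRNA, 10.94% to 11.64% with SLBP siRNA and 11% to 13.15% with NPAT siRNA, and 6.96% to 10.83% over the groups with TGFb. Between 21130 and 21355 genes had counts in non-transfected libraries and between 22704 and 24368 in siRNA libraries. The part of these values in the results was not tested. Exons of MCM2, MCM7, GINS2, PRIM1, POLD3, RFC4, RFC5, FEN1, TYMS, CHEK1 and BRCA1 overlap a gene with at least 10% of their counts, so the split of reads is uncertain for these 11 members. The 2 SLBP siRNA libraries without TGFb differed most from each other of any group, and the 2 FLASH siRNA libraries least.

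Promoter windows, 250 bases before to 50 after the start, were found by symbol in RefSeq (GRCh38.p14) for 37 of the 44 genes. Exact matches on either strand to E2F motif letters (TTTCCCGC, TTTGGCGC, TTTCGCGC or TTTGCCGC) were found in at least 1 window of 22 of these 37 genes (59.5%), against 3.99% of the 27305 genes with a window and 6.26% of the 11719 tested genes with one. CCAAT, the motif of NF-Y, was found in 59.5% of the 37, against 39.7% and 42.5%, and CHR letters (TTTGAA or TTCGAA) in 8.11%, against 19.5% and 15.5%. MCM6 held the most E2F matches, with 4. The windows printed belong to the members at both ends of the FLASH siRNA comparison (RRM2 and CDC7) and of the NPAT siRNA comparison (TK1 and PCNA). E2F1, which encodes the factor itself, was added after its values were seen, as was the choice of the window with most matches where a gene has several. Capitals mark E2F matches, 8 letters long, and CCAAT matches, 5 letters long, with GCGGGAAA, GCGGCAAA and ATTGG being matches on the other strand.
RRM2: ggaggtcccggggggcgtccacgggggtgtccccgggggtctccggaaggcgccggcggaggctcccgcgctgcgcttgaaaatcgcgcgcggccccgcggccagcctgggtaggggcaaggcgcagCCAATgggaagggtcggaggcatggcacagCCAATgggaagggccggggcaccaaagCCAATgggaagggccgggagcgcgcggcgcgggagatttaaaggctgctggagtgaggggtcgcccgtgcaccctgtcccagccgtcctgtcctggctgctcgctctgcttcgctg
CDC7: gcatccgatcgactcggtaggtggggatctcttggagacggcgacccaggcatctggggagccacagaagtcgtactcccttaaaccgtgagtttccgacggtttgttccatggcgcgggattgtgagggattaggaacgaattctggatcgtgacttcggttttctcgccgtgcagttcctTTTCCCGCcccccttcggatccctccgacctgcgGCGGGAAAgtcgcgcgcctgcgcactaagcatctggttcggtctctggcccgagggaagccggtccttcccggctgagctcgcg
TK1: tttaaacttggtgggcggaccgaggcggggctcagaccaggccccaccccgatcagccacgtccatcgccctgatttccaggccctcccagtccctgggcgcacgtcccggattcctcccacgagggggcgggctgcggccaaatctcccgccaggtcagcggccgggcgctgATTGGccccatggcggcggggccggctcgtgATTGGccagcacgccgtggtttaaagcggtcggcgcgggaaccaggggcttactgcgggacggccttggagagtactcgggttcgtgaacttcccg
PCNA: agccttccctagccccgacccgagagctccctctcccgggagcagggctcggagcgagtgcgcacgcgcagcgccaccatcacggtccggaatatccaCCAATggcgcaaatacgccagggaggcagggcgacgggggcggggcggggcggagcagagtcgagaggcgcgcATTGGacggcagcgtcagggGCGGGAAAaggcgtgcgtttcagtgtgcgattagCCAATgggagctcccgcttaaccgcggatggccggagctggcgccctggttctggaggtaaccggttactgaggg
E2F1: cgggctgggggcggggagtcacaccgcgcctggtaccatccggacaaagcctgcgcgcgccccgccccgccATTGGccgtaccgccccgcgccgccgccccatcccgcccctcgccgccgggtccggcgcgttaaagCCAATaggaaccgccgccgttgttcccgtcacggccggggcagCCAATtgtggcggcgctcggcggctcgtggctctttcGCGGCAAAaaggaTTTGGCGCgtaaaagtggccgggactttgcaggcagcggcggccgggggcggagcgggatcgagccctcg
The RRM2 window lies at chr2:10122489-10122788 on the plus strand, CDC7 at chr1:91500862-91501161 on the plus strand, TK1 at chr17:78187003-78187302 on the minus strand, PCNA at chr20:5126573-5126872 on the minus strand and E2F1 at chr20:33686336-33686635 on the minus strand. RRM2 and TK1 have no match to the E2F letters, with 3 and 2 CCAAT matches, which says only that these letters are not in these windows. CDC7 has 2 E2F matches, 68 and 34 bases before the start, and no CCAAT. PCNA has 1 E2F match, 59 bases before the start, and E2F1 has 2, at 33 and 20 bases, and both have 3 CCAAT matches.

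Summed over the 44 genes, transcripts stood at 2760 and 2610 CPM in non-transfected cells and at 3810 and 3630 CPM with FLASH siRNA. The sums were 1950 and 1890 CPM with NPAT siRNA and 2160 and 1960 CPM with SLBP siRNA. With TGFb they were 2510 and 2800, 3110 and 3530, 1950 and 1660, and 2340 and 2760 CPM in the same order. FLASH siRNA libraries were thus the highest and NPAT siRNA libraries the lowest in each TGFb state, and SLBP siRNA libraries left the range of non-transfected cells without TGFb but overlapped it with TGFb. In these bulk libraries, fewer cells in S phase and less RNA per cell cannot be told apart. Per transcript length, MCM7 was the most abundant member, at a mean of 177 TPM (a level per length with an equal total in every library) over the 16 libraries, and E2F2 the least, at 1.49 TPM. The lowest count of any member in any library was 29, for E2F2.

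**Figure D1:**
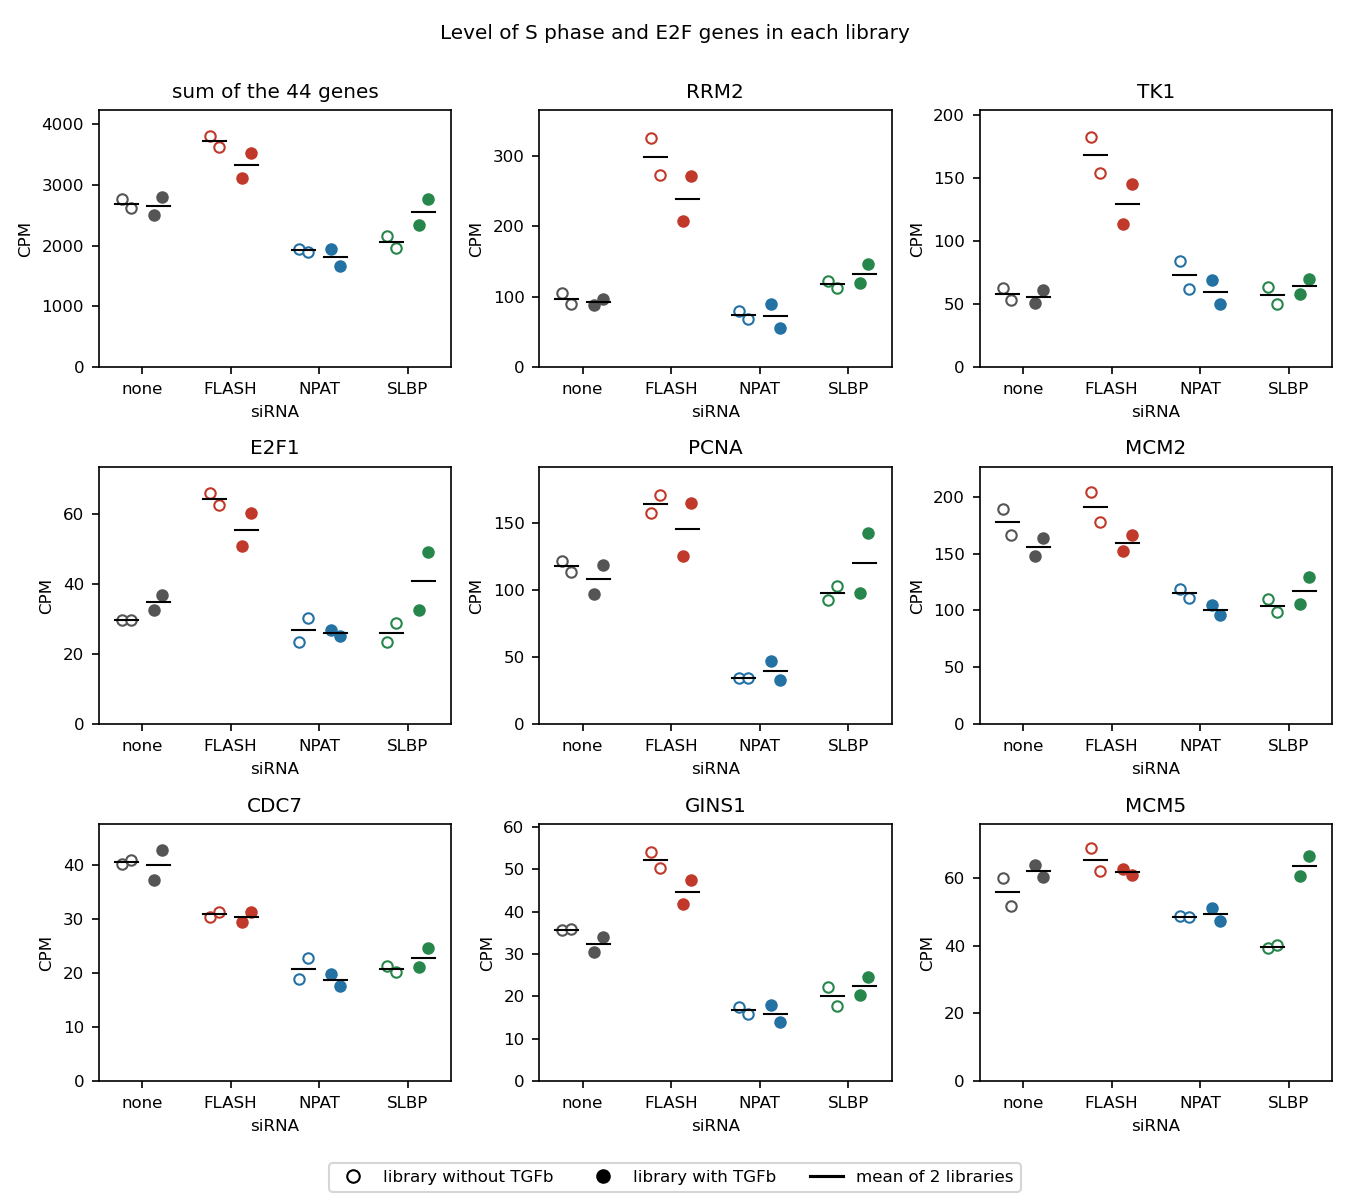
Level in CPM (vertical axes, starting at 0) of the 44 genes summed and of 8 members in the 16 libraries, by siRNA; open points are libraries without TGFb, filled points with TGFb, and lines are means of 2 libraries. RRM2, TK1 and E2F1 are highest with FLASH siRNA, PCNA is lowest with NPAT siRNA, and CDC7 is lower than in non-transfected cells with each siRNA.

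An order with both FLASH siRNA libraries above both non-transfected libraries, and these above both NPAT siRNA libraries, was seen for 23 of the 44 genes without TGFb and 23 with TGFb, against 3.41% and 3.24% of all genes tested. The group mean was highest with FLASH siRNA for 38 genes without and 36 with TGFb. It was lowest with NPAT siRNA for 24 genes without TGFb, when SLBP siRNA held the lowest mean of 19. With TGFb it was lowest with NPAT siRNA for 41 genes, when SLBP siRNA held the lowest mean of 0. The shares of all genes with these ranks of group means were not counted.

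FLASH siRNA raised S phase and E2F genes. Of the 44, 25 rose and 2 fell against non-transfected cells by edgeR's quasi-likelihood test with Benjamini-Hochberg adjustment, while 20.8% of all genes tested rose and 12.9% fell. The median log2 fold change was 0.51, against 0.04 over all genes. With TGFb, 14 rose and 2 fell, against 17.5% and 9.06% of all genes, with medians of 0.42 and 0.01. These comparisons share no library but do share the estimate of the spread. In both, 13 genes rose and 2 fell, and the share of all genes that did so was not counted. The genes that rose in both were ORC1, CDC6, CDT1 and MCM4 of licensing, GINS1 of firing, the polymerase subunits POLE and POLD1, the clamp loader subunit DSCC1, the ligase LIG1, RRM2, TK1 and TYMS of nucleotide supply, and E2F1.

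The highest fold changes were in nucleotide supply. RRM2, the regulated subunit of the reductase that makes deoxynucleotides, was at 105 and 89.4 CPM in non-transfected cells and 325 and 273 CPM with FLASH siRNA. With TGFb it was at 88.0 and 97.2 against 207 and 272 CPM. Both FLASH siRNA libraries were above both others in each state, and RRM2 rose by 1.62 ± 0.20 on the log2 scale (SE, adjusted p = 0.00012) without TGFb and by 1.37 ± 0.20 (adjusted p = 0.00044) with it. TK1, the thymidine kinase of the salvage route, was at 63.0 and 53.4 CPM in non-transfected cells and 182 and 154 CPM with FLASH siRNA, and with TGFb at 50.4 and 60.8 against 113 and 145 CPM. Again no libraries overlapped, and TK1 rose by 1.53 ± 0.21 (adjusted p = 0.00019) and 1.21 ± 0.21 (adjusted p = 0.0011). TYMS, which makes thymidylate, rose by 0.57 without and 0.44 with TGFb, and RRM1, the large subunit of the reductase, by 0.42 without TGFb and had 0.35 with TGFb, which did not pass. DUT, which breaks down dUTP, went the other way: 44.6 and 44.7 CPM in non-transfected cells against 32.6 and 35.4 CPM, and 48.7 and 55.9 against 36.0 and 38.1 CPM with TGFb. Both FLASH siRNA libraries were lower in each state, and DUT fell by 0.39 ± 0.12 (adjusted p = 0.024) and by 0.50 ± 0.12 (adjusted p = 0.0085).

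All 3 E2F genes rose with FLASH siRNA. E2F1, an activating E2F, was at 29.8 and 29.6 CPM in non-transfected cells and 65.8 and 62.4 CPM with FLASH siRNA, with no overlap, and rose by 1.11 ± 0.18 (adjusted p = 0.00076). With TGFb it was at 32.6 and 36.8 against 50.9 and 60.1 CPM, and rose by 0.68 ± 0.18 (adjusted p = 0.016). E2F2, a second activator at much lower level, was at 2.32 and 1.87 against 4.16 and 4.75 CPM, and rose by 1.09 ± 0.34 (adjusted p = 0.026). With TGFb its difference of 0.59 ± 0.34 did not pass. E2F8, an atypical E2F that represses transcription, rose by 0.61 without TGFb and had 0.41 with TGFb, which did not pass.

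Among replication factors, log2 fold changes without TGFb were above 0 for 9 of 10 licensing and 6 of 7 firing genes. CDC6, which loads the MCM helicase, was at 68.6 and 63.2 CPM in non-transfected cells and 121 and 114 CPM with FLASH siRNA, with no overlap, and at 58.5 and 72.9 against 93.6 and 111 CPM with TGFb. It rose by 0.84 and 0.64 on the log2 scale. Of the 10 licensing genes, 5 rose without and 4 with TGFb, and none fell. MCM2, a helicase subunit, was at 189 and 166 CPM in non-transfected cells and 204 and 178 CPM with FLASH siRNA, with overlapping libraries, and its difference of 0.10 ± 0.12 did not pass (adjusted p = 0.55). CDC7, the kinase that fires origins, was at 40.2 and 41.0 CPM against 30.5 and 31.4 CPM, and with TGFb at 37.3 and 42.9 against 29.6 and 31.3 CPM. Both FLASH siRNA libraries were lower in each state, and CDC7 fell by 0.39 ± 0.12 (adjusted p = 0.028) and by 0.40 ± 0.12 (adjusted p = 0.033), whereas CDC45, GINS1, GINS2 and GINS4 rose by 0.55 to 0.89 without TGFb. PCNA, the sliding clamp, had differences of 0.48 (adjusted p = 0.076) and 0.43 (adjusted p = 0.13) that did not pass. Without TGFb it passed with the replicate block (adjusted p = 0.039), with the compared groups alone (0.0057) and with no filter on low counts (0.0067), and with TGFb with no filter (0.021). The fall of CDC7 with TGFb was lost with no filter (0.053).

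The number of members that passed depended on having both libraries. It was 9 without FLASH siRNA replicate 1, 13 without FLASH siRNA replicate 2, and 11 without either non-transfected library, in place of 27. CLSPN, CDC6, E2F1, DSCC1, TK1, RRM2 and POLE passed in each of these 4 fits. Among the genes described, E2F2, E2F8, RRM1, GINS2, GINS4, CDC7 and DUT passed in none of them. With TGFb the count was 8 and 4 with FLASH siRNA + TGFb replicates 1 and 2 left out in turn, and 6 with either TGFb-treated control library left out, in place of 16. TK1, RRM2 and POLE passed in each fit, CDC6 and DUT in 2 of 4, ORC1, CDT1, MCM4, LIG1, TYMS, E2F1 and CDC7 in 1 of 4, and GINS1, POLD1 and DSCC1 in none. With the replicate block 25 passed with TGFb, and with the compared groups alone 27.

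**Figure D2:**
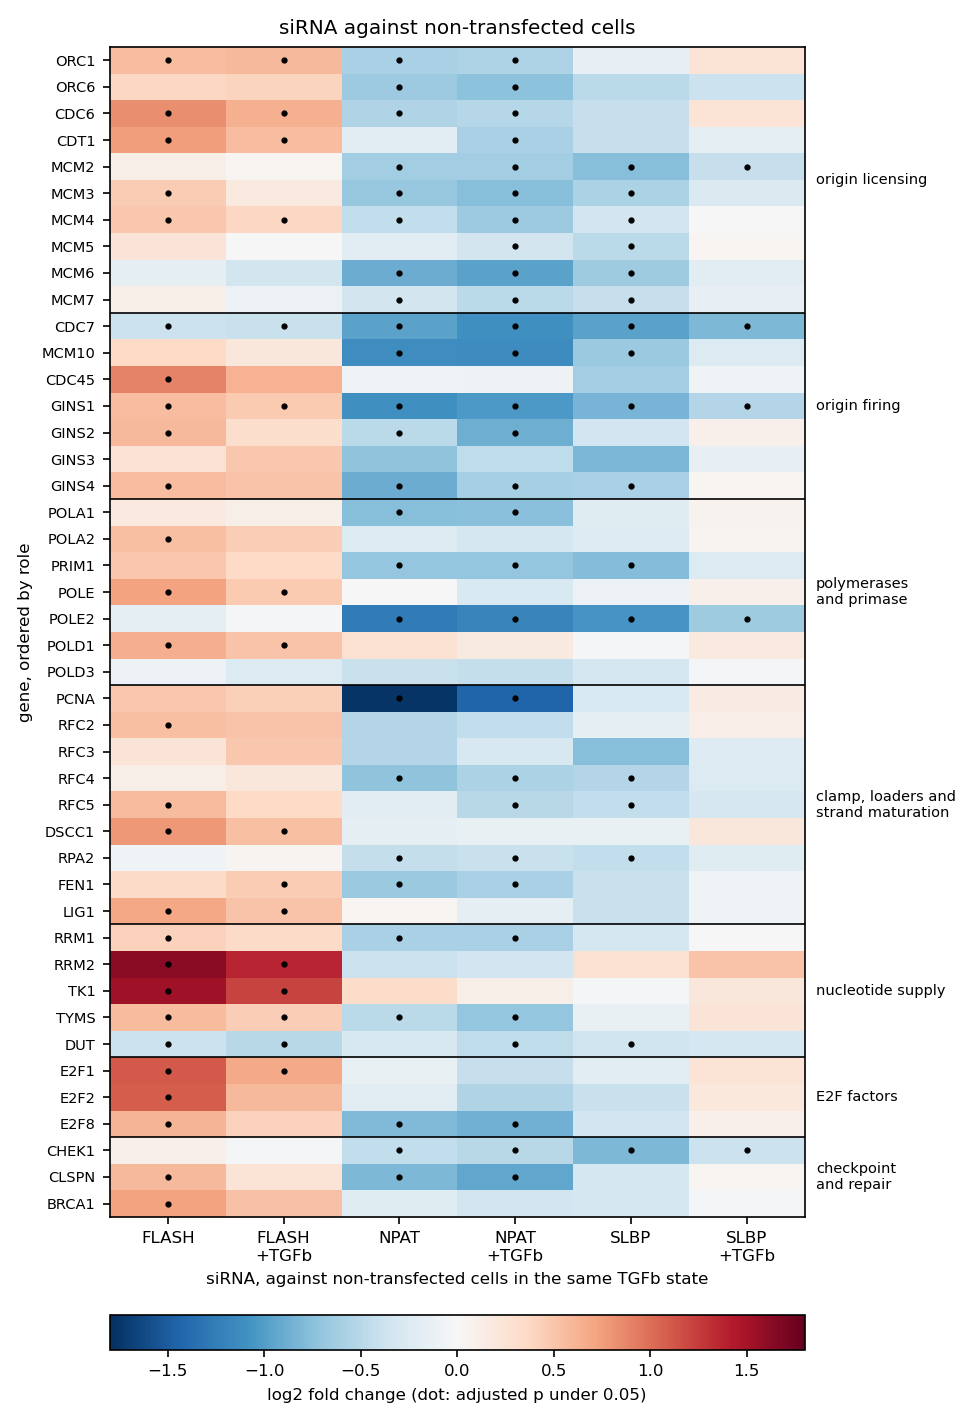
Log2 fold change (colour, scale from -1.8 to 1.8) of the 44 genes, ordered by role, in each siRNA group against non-transfected cells in the same TGFb state; dots mark adjusted p under 0.05. FLASH siRNA columns are mostly positive with CDC7 and DUT negative, and all dots in the NPAT and SLBP siRNA columns are on negative values.

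NPAT siRNA, whose libraries without TGFb held 11% to 13.15% mitochondrial counts against 9.78% to 9.84%, lowered S phase genes. Of the 44 genes, none rose and 25 fell against non-transfected cells, while 18.9% of all genes tested rose and 13.3% fell. The median log2 fold change was -0.51, against 0.06 over all genes. With TGFb none rose and 29 fell, against 13.7% and 10.3%, with medians of -0.55 and 0.02. All 25 that fell without TGFb also fell with it, and the share of all genes that fell in both states was not counted. At an unadjusted p under 0.05, 29 members differed without TGFb, and 33 with it, against 43.5% and 38.3% of all genes. By role, 8 of 10 licensing genes fell without TGFb and 10 with it, 5 of 7 firing genes in each state, 3 of 7 polymerase subunits, 4 and 5 of 9 clamp and strand maturation genes, and 2 and 3 of 5 nucleotide genes.

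PCNA, which holds polymerases on DNA, had the lowest fold change of all members in both states. It was at 122 and 114 CPM in non-transfected cells and 34.8 and 34.3 CPM with NPAT siRNA, which left 29.4% of the level. With TGFb it was at 97.2 and 119 against 46.9 and 32.7 CPM, or 36.8%. The groups did not overlap in either state, and PCNA fell by 1.77 ± 0.20 on the log2 scale (adjusted p = 0.00013) and by 1.44 ± 0.20 (adjusted p = 0.00058). The next lowest was POLE2, a subunit of the leading strand polymerase, at 13.5 and 12.8 against 5.88 and 5.12 CPM, and at 10.3 and 11.2 against 5.00 and 4.41 CPM with TGFb. POLE2 fell by 1.26 ± 0.20 (adjusted p = 0.00075) and by 1.19 ± 0.20 (adjusted p = 0.0016), with no overlap, while POLE, the catalytic subunit of the same polymerase, had -0.01 and -0.27, which did not pass.

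MCM10, which helps the helicase to start, was at 47.0 and 36.2 CPM in non-transfected cells and 22.8 and 15.4 CPM with NPAT siRNA, and fell by 1.12 ± 0.23 (adjusted p = 0.0032). GINS1, a subunit of the GINS complex, was at 35.6 and 35.9 against 17.6 and 15.8 CPM, and fell by 1.10 ± 0.15 (adjusted p = 0.00041). Neither gene's libraries overlapped. CDC7 was at 18.9 and 22.8 CPM and fell by 0.96 ± 0.13 (adjusted p = 0.00027), and with TGFb, at 19.9 and 17.6 CPM, by 1.10 ± 0.13 (adjusted p = 0.00019). MCM2 was at 119 and 111 CPM, below both non-transfected libraries, and fell by 0.63 ± 0.12 (adjusted p = 0.0026).

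RRM2, TK1 and E2F1, which rose with FLASH siRNA, did not pass with NPAT siRNA without TGFb. RRM2 was at 79.5 and 68.9 CPM with NPAT siRNA, below both non-transfected libraries, but its difference of -0.39 ± 0.20 did not pass (adjusted p = 0.16), except with no filter on low counts (-0.44, adjusted p = 0.0073). TK1 was at 84.1 and 62.1 CPM, overlapping the non-transfected libraries, with a difference of 0.33 ± 0.20 (adjusted p = 0.24). E2F1 was at 23.5 and 30.2 CPM, also overlapping, with a difference of -0.14 ± 0.19 (adjusted p = 0.58). With TGFb none of these genes passed in the main fit. E2F1, at 26.9 and 25.2 against 32.6 and 36.8 CPM, was lower with no filter (-0.43, adjusted p = 0.037) and with the replicate block (-0.41, 0.04). RRM2 with TGFb was lower with no filter (-0.37, adjusted p = 0.037), with overlapping libraries. Of the E2F genes E2F8 fell, by 0.79 without and 0.87 with TGFb, and passed in 2 of 4 fits without one library in each state. Without one library the count of members lower was 16 (without non-transfected replicate 1) to 23 in place of 25, and with TGFb it was 9 with NPAT siRNA + TGFb replicate 2 left out and 12 with non-transfected + TGFb replicate 2 left out, in place of 29. PCNA, POLE2, GINS1, CDC7 and MCM2 passed in each of these fits in both states, and MCM10 failed without NPAT siRNA + TGFb replicate 2.

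SLBP siRNA lowered 17 members without TGFb and 5 with TGFb. The count without TGFb was 3 with the spread taken from the compared groups alone and 25 with the replicate block. Without TGFb none of the 44 rose and 17 fell, while 15.1% of all genes rose and 10.8% fell, with medians of -0.40 and 0.05. With TGFb none rose and 5 fell, against 12.3% and 7.6%, and the member median was -0.04 against 0.02 over all genes. The 5 were CDC7, POLE2, GINS1, CHEK1 and MCM2, and all 5 fell in both states, again with no share of all genes counted. RRM2 with TGFb went the other way, at 119 and 146 CPM against 88 and 97.2 CPM in non-transfected cells, but did not pass. It was higher with no filter on low counts (0.51, adjusted p = 0.0018), with the compared groups alone (0.53, 0.023) and with the replicate block (0.52, 0.049). An unadjusted p under 0.05 was found for 27 members without and 8 with TGFb, against 39.2% and 33.6% of all genes, so the count with TGFb was below the background.

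CDC7 was at 21.4 and 20.3 CPM with SLBP siRNA, below 40.2 and 41.0 CPM in non-transfected cells, and fell by 0.96 ± 0.13 (adjusted p = 0.00036). With TGFb it was at 21.1 and 24.7 CPM, again below both controls, and fell by 0.81 ± 0.13 (adjusted p = 0.001). POLE2 was at 7.43 and 5.19 CPM and fell by 1.06 ± 0.19 (adjusted p = 0.0025). CHEK1, the kinase that slows S phase when replication stalls, was at 79.3 and 73.8 CPM in non-transfected cells and 46.1 and 41.2 CPM with SLBP siRNA, and fell by 0.81 ± 0.11 (adjusted p = 0.00041). GINS1 was at 22.3 and 17.8 CPM and fell by 0.83 ± 0.15 (adjusted p = 0.0025), and MCM2, at 110 and 98.6 CPM, by 0.77 ± 0.12 (adjusted p = 0.0012). None of these overlapped the non-transfected libraries.

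PCNA did not follow: it was at 92.4 and 103 CPM with SLBP siRNA, with a difference of -0.27 ± 0.20 (adjusted p = 0.33). RRM2, at 122 and 113 CPM, was the only member with both SLBP siRNA libraries above both non-transfected ones, and its difference of 0.28 ± 0.20 did not pass (adjusted p = 0.32). TK1 had -0.03 and E2F1 -0.19, neither past the threshold. The count of 17 fell to 8 without SLBP siRNA replicate 2, and to 7 and 10 without non-transfected replicates 1 and 2, while CDC7, POLE2, GINS1, CHEK1 and MCM2 passed in each fit without one library. With the compared groups alone POLE2 (adjusted p = 0.071) and GINS1 (0.061) were lost, and CDC7, CHEK1 and MCM2 passed. With TGFb, CHEK1 (0.065) and MCM2 (0.059) were lost in the latter fit. Of fits without one library, 1 gene passed when SLBP siRNA + TGFb replicate 1 or non-transfected + TGFb replicate 2 was left out, 3 passed without SLBP siRNA + TGFb replicate 2, and leaving out non-transfected + TGFb replicate 1 gave 2. CDC7 passed in each of these, and the member median turned to 0.10 when the first of these was left out and to 0.01 when the second was.

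Among the siRNA groups, FLASH siRNA cells had higher levels of S phase genes than both others. Against NPAT siRNA 39 of the 44 genes were higher and none lower, while 12.4% of all genes were higher and 9.91% lower, with medians of 0.97 and 0.01. Against SLBP siRNA 41 were higher and none lower, against 15.3% and 10.8%, with medians of 0.89 and 0.01. All 10 licensing and all 7 firing genes were higher in both comparisons. PCNA was 4.76-fold higher with FLASH than with NPAT siRNA, at 158 and 171 against 34.8 and 34.3 CPM, a log2 difference of 2.25 ± 0.21 (adjusted p = 9.6e-05). RRM2 was 4.03-fold higher than with NPAT siRNA, a log2 difference of 2.01 ± 0.21 (adjusted p = 0.00016), and GINS1, at 54.2 and 50.4 CPM with FLASH siRNA, 3.13-fold. MCM10 was 2.80-fold higher, at 54.1 and 53.0 CPM. No libraries of these 4 genes overlapped.

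Against SLBP siRNA the highest fold changes were of TK1, CDC45, E2F2 and GINS1. Of these, GINS1 was also among the highest against NPAT siRNA, and was at 54.2 and 50.4 CPM with FLASH against 22.3 and 17.8 CPM with SLBP siRNA. TK1 was 2.95-fold higher, at 182 and 154 against 63.6 and 50.3 CPM, a log2 difference of 1.56 ± 0.21 (adjusted p = 0.00042). CDC45, the helicase cofactor, was at 30.2 and 23.1 against 9.58 and 9.11 CPM and differed by 1.51 ± 0.25 (adjusted p = 0.0013). E2F2 differed by 1.48 ± 0.34 (adjusted p = 0.0083) and did not pass without SLBP siRNA replicate 2. PCNA differed by 0.75 ± 0.20 (adjusted p = 0.015), with libraries that did not overlap, but passed in only 1 of 4 fits without one library. DUT, which also fell with SLBP siRNA against non-transfected cells, by 0.36 ± 0.12 (adjusted p = 0.045, lost under RLE scaling at 0.051, with no filter at 0.055, with the compared groups alone at 0.17 and in all 4 fits without one library), differed with FLASH siRNA by -0.11 ± 0.12 from NPAT siRNA and by -0.03 ± 0.12 from SLBP siRNA, neither past the threshold.

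With TGFb, 38 of the 44 genes were higher and none lower with FLASH than with NPAT siRNA, against 9.09% and 4.5% of all genes, with medians of 0.94 and 0.03. PCNA differed by 1.87 ± 0.20 (adjusted p = 0.00045) and RRM2 by 1.72 ± 0.21 (adjusted p = 0.00065). Leaving out FLASH siRNA + TGFb replicate 2 gave a count of 16, and leaving out NPAT siRNA + TGFb replicate 2 gave 15. PCNA, RRM2 and GINS1 passed in each of the 4 fits. Against SLBP siRNA with TGFb, 12 were higher and none lower, against 8.3% and 4.73%, with medians of 0.40 and 0.02. GINS1 differed by 0.99 ± 0.15 (adjusted p = 0.002), at 41.8 and 47.6 against 20.3 and 24.6 CPM. TK1 differed by 1.01 ± 0.20 (adjusted p = 0.0084) and RRM2 by 0.85 ± 0.20 (adjusted p = 0.017). Only 1 gene passed with FLASH siRNA + TGFb replicate 2 or SLBP siRNA + TGFb replicate 1 left out, 3 passed without SLBP siRNA + TGFb replicate 2, and 23 with the replicate block. GINS1 passed in each fit, TK1 in 2 of 4 and RRM2 in 1 of 4.

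**Figure D3:**
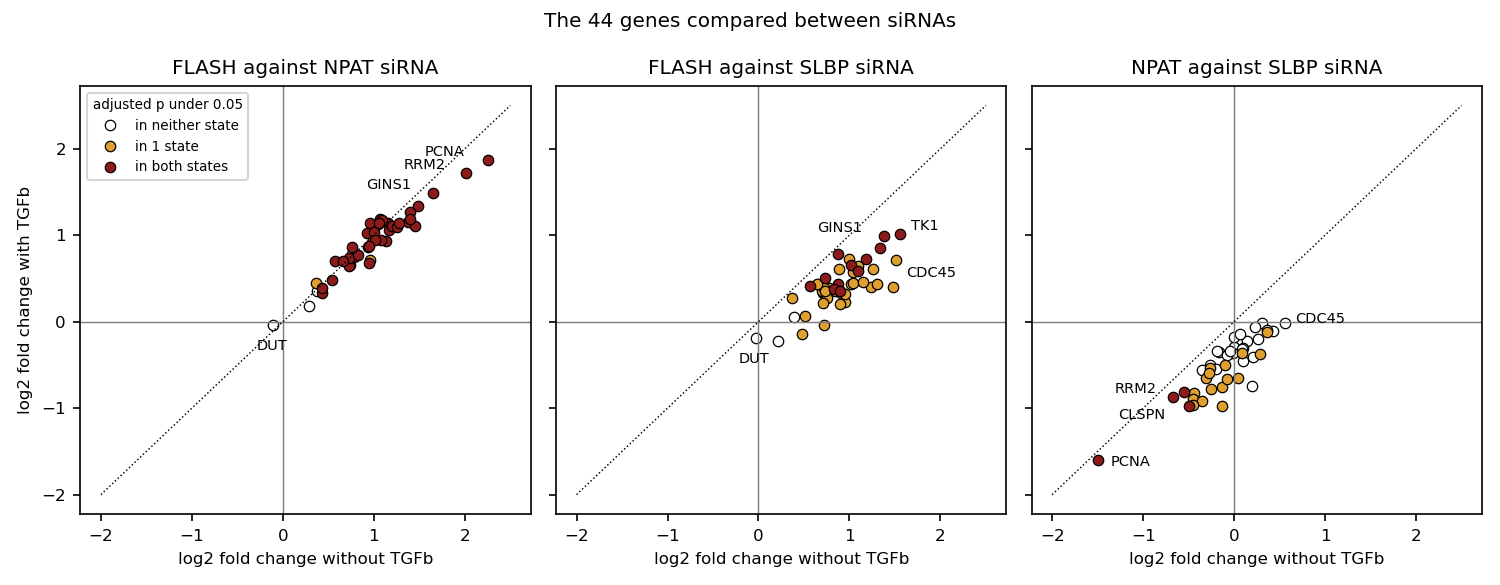
Log2 fold change between siRNA groups without TGFb (horizontal) and with TGFb (vertical) for the 44 genes, with the dotted line at equal values and colour for the number of states with adjusted p under 0.05. With FLASH against NPAT siRNA the points run along the line up to PCNA at 2.25 and 1.87, with FLASH against SLBP siRNA most lie below it, and with NPAT against SLBP siRNA PCNA is alone at -1.50 and -1.60.

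Between NPAT and SLBP siRNA without TGFb, PCNA had the largest difference. Only 1 member, CHEK1, was higher with NPAT siRNA and 4 were lower, while 8.88% of all genes were higher and 7.11% lower, with medians of -0.06 and 0.01. PCNA, at 34.8 and 34.3 against 92.4 and 103 CPM, had a log2 difference of -1.50 ± 0.20 (adjusted p = 0.00052). RRM2 differed by -0.67 ± 0.20 (adjusted p = 0.042), POLA1, the catalytic subunit of the primer-making polymerase, by -0.55 ± 0.14 (adjusted p = 0.023), CLSPN, the checkpoint adaptor, by -0.50 ± 0.14 (adjusted p = 0.028) and CHEK1 by 0.36 ± 0.11 (adjusted p = 0.039). PCNA alone passed in each fit without one library, where 1 to 3 members passed: 1 without either NPAT siRNA library, 2 without SLBP siRNA replicate 1 and 3 without SLBP siRNA replicate 2. With the compared groups alone PCNA was also the 1 member that passed.

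With TGFb, 19 members were lower with NPAT than with SLBP siRNA and none was higher, against 6.61% lower and 5.77% higher of all genes, with medians of -0.43 and -0.02. PCNA was at 46.9 and 32.7 against 98.3 and 143 CPM, a difference of -1.60 ± 0.20 (adjusted p = 0.00053). CLSPN was at 33.9 and 29.4 against 52.2 and 72.6 CPM, a difference of -0.98 ± 0.14 (adjusted p = 0.0011). GINS2, a further GINS subunit, was at 7.03 and 6.02 against 11.3 and 14.2 CPM and differed by -0.97, and E2F8, at 8.60 and 5.35 against 12 and 15 CPM, by -0.96. These libraries did not overlap. The count was 3 without NPAT siRNA + TGFb replicate 2 and 5 without SLBP siRNA + TGFb replicate 2. PCNA and CLSPN passed in each fit, GINS2 failed without NPAT siRNA + TGFb replicate 2, and E2F8 failed without either of these 2 libraries. With the compared groups alone 10 members passed, and E2F8 did not (adjusted p = 0.063).

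TGFb raised 8 S phase genes in cells with SLBP siRNA, but 0 with the spread taken from the compared groups alone, and none passed the threshold in the other cells. In non-transfected cells 0 of the 44 passed, against 6.18% of all genes in either direction, with medians of -0.05 and 0.00. The count was 0 with FLASH siRNA, against 4.11%, and 0 with NPAT siRNA, against 5.33%, with member medians of -0.19 and -0.08. At an unadjusted p under 0.05, 0, 2 and 4 members differed by edgeR in these 3 kinds of cells, against 17.7%, 16.3% and 17.8% of all genes, and DESeq2 also called 0. With SLBP siRNA 8 rose and none fell, against 12.6% of all genes in either direction, and the medians were 0.28 for the 44 genes and -0.02 over all genes.

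MCM5, a subunit of the helicase, was at 39.2 and 40.1 CPM with SLBP siRNA and 60.5 and 66.5 CPM with SLBP siRNA and TGFb. It rose by 0.68 ± 0.10 on the log2 scale (adjusted p = 0.00072). Non-transfected cells with TGFb were at 63.8 and 60.3 CPM. CLSPN rose from 41.3 and 40.5 to 52.2 and 72.6 CPM, by 0.61 ± 0.14 (adjusted p = 0.011), and CHEK1 from 46.1 and 41.2 to 56.0 and 63.8 CPM, by 0.46 ± 0.11 (adjusted p = 0.014). No libraries of these 3 genes overlapped. CDC6 rose by 0.64, GINS2 by 0.65, MCM7, another helicase subunit, by 0.43, E2F1 by 0.65 and TYMS by 0.51. The count was 1 without SLBP siRNA + TGFb replicate 2 and 3 without SLBP siRNA replicate 2, and 13 with the replicate block. MCM5 passed in each fit without one library, and CLSPN and CHEK1 in 2 of 4. With the compared groups alone all 8 calls were lost, with an adjusted p of 0.057 for MCM5, 0.18 for CLSPN and 0.19 for CHEK1.

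The number of members without overlap between TGFb states was near or below that of all genes, with an uneven split by direction. With SLBP siRNA both TGFb libraries were above both others for 23 of the 44 members and below for 0, against 24% and 23.8% of all genes. With FLASH siRNA they were above for 1 and below for 25 of the 44, against 26.7% and 26.6%. With NPAT siRNA the counts were 0 and 8, against 21% and 22.9%, and in non-transfected cells 7 and 8, against 24.3% and 22.9%.

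Interaction terms, which set the TGFb response with a given siRNA against that of non-transfected cells, passed for 0 members with FLASH, NPAT or SLBP siRNA, against 0.0845%, 0.0451% and 0.0225% of all genes. Unadjusted p was under 0.05 for 0, 0 and 4 members by edgeR, against 3.36%, 3.21% and 4.83% of all genes, and DESeq2 called 0. A different TGFb response with SLBP siRNA than in non-transfected cells was therefore not detectable for any single member at 2 libraries a group. The SLBP interaction was above 0 for all 44 members, with a median of 0.34 against -0.01 over all genes. The medians with FLASH and NPAT siRNA were -0.14 and -0.06. Members share the same libraries, and this shift of the 44 was not tested. The TGFb response with SLBP siRNA was also set against that with FLASH and with NPAT siRNA, a comparison chosen after the data were seen. These differences share the SLBP siRNA libraries, and their medians over the 44 genes were 0.46 and 0.40, against -0.02 and 0.01 over all genes. In each, 0 members passed, against 0.135% and 0.0564% of all genes. Unadjusted p was under 0.05 for 19 and 14 members by edgeR, against 6.32% and 4.29% of all genes, and DESeq2 called 1 member in each. With the replicate block MCM5 passed against FLASH siRNA (adjusted p = 0.014), where its difference was 0.76 ± 0.14 (adjusted p = 0.071 without the block).

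**Figure D4:**
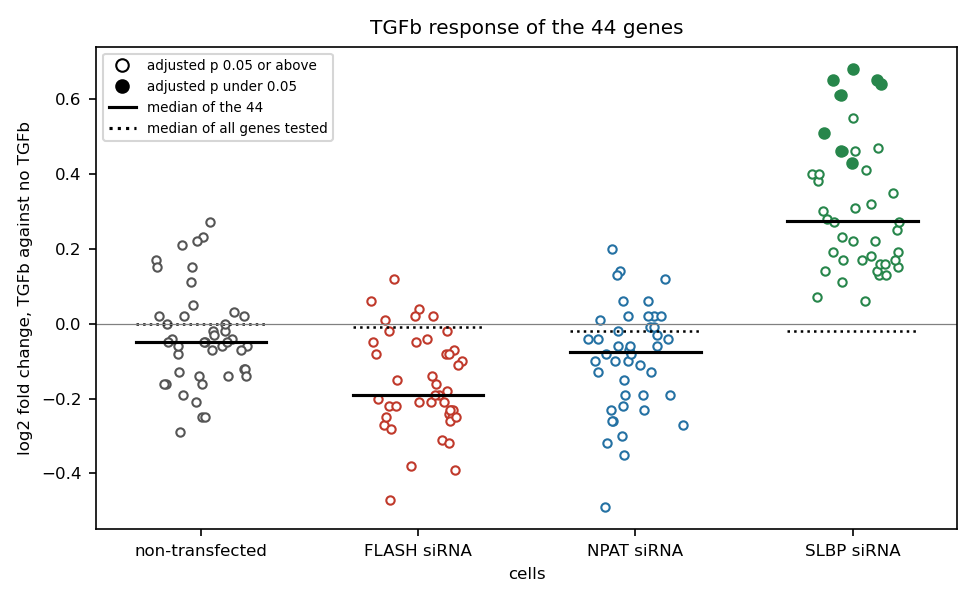
Log2 fold change of the 44 genes with TGFb against without it (vertical axis) in the 4 kinds of cells; filled points have adjusted p under 0.05, solid lines are medians of the 44 and dotted lines medians of all genes tested. The median is 0.28 with SLBP siRNA, where the 8 filled points are, and -0.05, -0.19 and -0.08 in non-transfected, FLASH siRNA and NPAT siRNA cells.

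Genes of the same pathways outside the 44 were counted in further lists, to be read against the 12.4% of all genes that were higher and 9.91% that were lower with FLASH than with NPAT siRNA. Of 30 other E2F targets, 27 were higher and none lower with FLASH than with NPAT siRNA, with a median of 0.93, among them UHRF1, which keeps DNA methylation through replication, by 1.72, and CDC25A, the phosphatase that starts S phase kinases, by 1.58. Of 26 other replication genes, 14 were higher and 1 lower, with a median of 0.36, and TIPIN, of the fork protection complex, was higher by 1.62. Of 13 RB proteins and E2F partners, 4 were higher and 1 lower, the lower one being E2F5, a repressor E2F, by -1.30. Of 30 genes of G2 and mitosis, 28 were higher and none lower, with a median of 0.94, including BIRC5, of the chromosomal passenger complex, by 1.63. Against non-transfected cells, FLASH siRNA raised 9 and lowered 4 of the 26 other replication genes, with a median of only 0.11. Of the 30 other E2F targets it raised 19 and lowered 1, with a median of 0.71. Of all genes, 20.8% rose and 12.9% fell in that comparison.

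Mitotic genes and S phase genes had unlike medians in several comparisons. With SLBP siRNA against non-transfected cells under TGFb, 10 of 30 mitotic genes fell with a median of -0.38, beside 5 of 44 S phase genes with -0.04. Of all genes, 7.6% fell there. In FLASH against SLBP siRNA with TGFb, 25 of 30 were higher with a median of 0.86, beside 12 of 44 with 0.40 and 8.3% of all genes. For NPAT against SLBP siRNA with TGFb, 1 of 30 was higher, with a median of 0.03, beside 19 of 44 lower with -0.43. Of all genes, 5.77% were higher and 6.61% lower in that comparison. For TGFb in SLBP siRNA cells the medians were -0.22 for the mitotic and 0.28 for the S phase genes. The difference between the lists was not tested.

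Cyclin E genes, whose products with CDK2 start S phase, rose with FLASH siRNA without TGFb, and CCNE1 also with SLBP siRNA. CCNE2 was at 12.3 and 11.3 CPM in non-transfected cells, 33.0 and 28.0 CPM with FLASH siRNA, 12.8 and 11.9 CPM with NPAT siRNA and 12.8 and 12.5 CPM with SLBP siRNA. It rose with FLASH siRNA by 1.36 ± 0.15 (adjusted p = 5.2e-05), and CCNE2 rose with TGFb in SLBP siRNA cells by 0.73 ± 0.15 (adjusted p = 0.0068), to 19.2 and 23.0 CPM. CCNE1 was at 8.71 and 9.18 CPM in non-transfected cells, 15.8 and 16.7 CPM with FLASH siRNA, 9.58 and 13.7 CPM with NPAT siRNA and 14.1 and 22.2 CPM with SLBP siRNA. It rose by 0.86 ± 0.26 (adjusted p = 0.025) with FLASH siRNA and by 1.02 ± 0.26 (adjusted p = 0.015) with SLBP siRNA, and the FLASH and SLBP siRNA libraries overlapped. CCNE1 was highest with SLBP siRNA and TGFb, at 25.3 and 41.1 CPM, against 12.5 and 13.6 CPM in non-transfected cells with TGFb, and was higher by 1.34 ± 0.26 (adjusted p = 0.0038). CDKN1A, which encodes the cyclin kinase inhibitor p21, was at 40.3 and 28.6 CPM in non-transfected cells and 162 and 138 CPM with FLASH siRNA, and rose by 2.12 ± 0.32 (adjusted p = 0.00039). Among the 12 tested G1 cyclins, kinases and inhibitors, the log2 difference between FLASH and NPAT siRNA without TGFb was at most 1.11. The level of CDKN1A with NPAT siRNA was thus also above that of non-transfected cells, so a raised level was not particular to FLASH siRNA. Over these 12 genes the highest log2 fold change against non-transfected cells was 2.12 with FLASH, 2.16 with NPAT and 1.31 with SLBP siRNA. These are maxima of the list, and the CDKN1A values with NPAT and SLBP siRNA are not given here. CDKN2A and CDKN2B, inhibitors of the cyclin D kinases, were at 0 counts in all 16 libraries. Cyclin E and inhibitor genes were chosen for this paragraph after their values were seen.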

How the data were processed

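RNA of 16 PANC-1 libraries was extracted as total RNA and made into libraries with a stranded mRNA kit, per the labels' protocols. STAR 2.4.2a, RSEM 1.2.31 and GRCh38.p10 are named in the submitters' processing notes. The authors deposited expected counts per gene, which divide reads shared by several genes, and TPM, a level per transcript length with an equal total for every library. Whether counting used strand is not given in the sources used here. Of the values, 2.98% of expected counts were not whole, and all were rounded. TPM served only to compare levels between genes, and 48 further columns (length, effective length and FPKM) were not used.

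Counts were filtered with filterByExpr and scaled by TMM, and edgeR 4.0.16 (R 4.3.3) estimated 1 mean per group over the 16 libraries, with 8 residual degrees of freedom. Quasi-likelihood F tests were adjusted by Benjamini-Hochberg over 17743 genes, and a gene is said to rise, fall, be higher or be lower where adjusted p was under 0.05. SE is the log2 fold change divided by the square root of F, an approximation. The 44 members, their roles, the other lists and the rule for named genes were chosen with earlier results of these data known. The rule named PCNA, RRM2, TK1, E2F1 and MCM2 throughout, up to 4 genes with the highest and 4 with the lowest fold change among those that passed without overlap, those against the main direction, up to 6 that passed with TGFb, and the 3 largest of each other list, not all of which are given.

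Same-numbered libraries deviated together: the correlation of their deviations from the group means was over 0.1 in all 28 pairs of groups, narrowly in the lowest (0.102, median 0.4). The repeat numbers in the labels were therefore taken to pair libraries. The main fit, which gave the calls in the results, ignored this pairing, and a fit with the replicate block was run as an alternative. The others were RLE scaling, no filter on low counts, DESeq2 1.42.0, the compared groups alone and leaving out each library. Exons of 21 members overlap another gene in GENCODE release 29, and for 11 that gene has at least 10% of the member's counts, among them MCM2, GINS2, TYMS and CHEK1, so their split of reads is uncertain. Processed copies of members had at most 0.168% of the member's counts.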

Additional observations from a re-analysis of the deposited data

How the results depend on the processing

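Counts are of the 44 members past the threshold, and each move not traced to fewer samples has a cause that was not tested. Leaving out 1 library at a time leaves 1 sample in a group, assumed to vary like the others, and gave 9 to 13 for FLASH siRNA, 16 to 23 for NPAT siRNA and 7 to 16 for SLBP siRNA against non-transfected cells. With TGFb the same comparisons gave 4 to 8, 9 to 26 and 1 to 3. It gave 1 to 3 for NPAT against SLBP siRNA, 15 to 34 for FLASH against NPAT siRNA with TGFb, 1 to 9 for FLASH against SLBP siRNA with TGFb, 3 to 16 for NPAT against SLBP siRNA with TGFb and 1 to 8 for TGFb in SLBP siRNA cells. Medians near 0 changed sign: -0.14 to 0.10 for SLBP siRNA against non-transfected cells with TGFb, -0.13 to 0.01 for NPAT against SLBP siRNA, -0.13 to 0.02 for TGFb in non-transfected cells, -0.23 to 0.09 for TGFb in NPAT siRNA cells and -0.15 to 0.14 for the NPAT interaction. FLASH siRNA against NPAT and SLBP siRNA without TGFb stayed within 1.5 times of their counts throughout. The replicate block lost no call and gave 25 for FLASH siRNA with TGFb, 23 for FLASH against SLBP siRNA with TGFb, 13 for TGFb in SLBP siRNA cells and 1 for the TGFb response of SLBP minus FLASH siRNA cells. Fitting the compared groups alone, with fewer samples for the spread, gave 3 for SLBP siRNA against non-transfected cells, 27 for FLASH siRNA with TGFb, 1 for NPAT against SLBP siRNA, 10 for the same with TGFb and 0 for TGFb in SLBP siRNA cells. For the TGFb response of SLBP minus FLASH siRNA cells, no filter on low counts gave 3 and DESeq2 gave 1, and for SLBP minus NPAT siRNA cells DESeq2 gave 1. RLE scaling moved no count over 1.5 times. Depth limits E2F2 most, with a lowest count of 29, and 2 libraries per group limit every member.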

Other observations

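Members with and without a match to the E2F letters in their RefSeq windows had like medians in most comparisons. With FLASH siRNA against non-transfected cells the median log2 fold change was 0.51 for the 22 genes with a match, of which 14 passed, and 0.54 for the 15 without, of which 9 passed. With NPAT siRNA the medians were -0.54 and -0.53, with 13 and 8 genes past the threshold, and with SLBP siRNA -0.41 and -0.40, with 8 and 5. No test of these differences was made.

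Among genes outside the 44, CCND3, a D-type cyclin, was at 18.6 and 19.0 CPM in non-transfected cells, 60.0 and 57.2 CPM with FLASH siRNA, 29.9 and 28.7 CPM with NPAT siRNA and 27.0 and 28.1 CPM with SLBP siRNA. E2F5 was at 13.2 and 16.1, 7.37 and 10.0, 17.8 and 25.2, and 4.63 and 7.09 CPM in the same order.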
